A study of Mus musculus with 6 samples.

Results

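The matricellular injury response genes are a set of 10 named genes whose products are secreted into the matrix of a healing artery: Spp1, Tnc, Tnxb, Postn, Thbs1, Thbs2, Sparc, Fn1, Mgp and Cthrc1. A gene entered through every probe set annotated with its symbol alone. This gave 16 probe sets of 9 genes, out of 18194 genes on the array. No probe set carried Spp1 (osteopontin) as its symbol in the annotation used, so Spp1 has no value here, and 1 probe set annotated to Thbs1 and a second gene was left out. The RNA came from carotid arteries of mice taken 14 days after a wire injury. The mice were IRF4 KO, with Irf4 disrupted in the whole animal, or wild type (WT). Each genotype had 3 Affymetrix arrays, and each array held labelled RNA of 3 to 5 pooled vessels, made from 400 ng of total RNA. The labels call the arrays of a genotype biological replicates and give no age, sex or strain. All mice were injured, so no uninjured artery serves as a baseline.

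Matricellular proteins sit in the matrix but mainly signal to cells, through integrins and other surface receptors, rather than bear load. Many are low in the resting artery and are made by smooth muscle cells, fibroblasts and macrophages after injury, when smooth muscle cells divide, migrate and build a neointima. Fibronectin is an adhesive scaffold of the provisional matrix, and matrix Gla protein is an inhibitor of calcification.

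Values are log2 intensities, so a difference of 1 is a doubling of signal, and probe sets of different genes cannot be ranked by level. Differences are IRF4 KO minus WT. The array medians lay between 3.94 and 4.12, and the median of all gene means was 4.89. All 7 smooth muscle markers checked lay above that median, Myh11 among them. The targeted gene read 3.27, 3.75 and 3.70 in IRF4 KO 1 to 3, against 3.90, 3.64 and 3.38 in WT 1 to 3. Irf4 thus lay below the median on every array and did not check the genotype labels. The arrays IRF4 KO 1 and WT 3 stood apart. Their poly-A controls, bacterial RNAs spiked into each sample ahead of labelling, averaged 4.79 and 4.60, against 6.75 to 8.46 on the other 4 arrays. The difference of each measured member gene is therefore also drawn within each of these array sets, each of which holds both genotypes. The text prints these values for some genes only.

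All 9 measured genes had a higher mean in IRF4 KO than in WT, and none of the differences passed the limma test. The difference exceeded the SD of both genotypes in Tnxb and Postn. Over all genes, 49.7% had a higher mean in IRF4 KO. The count of members was 8 with quantile normalization, where Mgp turned to -0.043, and 7 with array weights, where Thbs2 and Cthrc1 turned. The differences ran from 0.080 for Mgp to 1.63 for Thbs1, with a median of 0.36, against -0.0015 over all genes. With limma, 0 of the 9 genes had an adjusted p under 0.05, as did 0% of all 18194 genes, and each member's adjusted p was 0.999. At an unadjusted p under 0.05 there were 0 of the 9 genes, against 1.49% of all genes. The IRF4 KO arrays lay above all WT arrays in 0 of the 9 genes, against 2.37% of all genes. Arrays of the same genotype had a median SD of 0.84 for the members and 0.26 for all genes. Without IRF4 KO 1 the number of members with a higher mean in IRF4 KO was 4 of 9, and the median difference was -0.045.

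**Figure D1:**
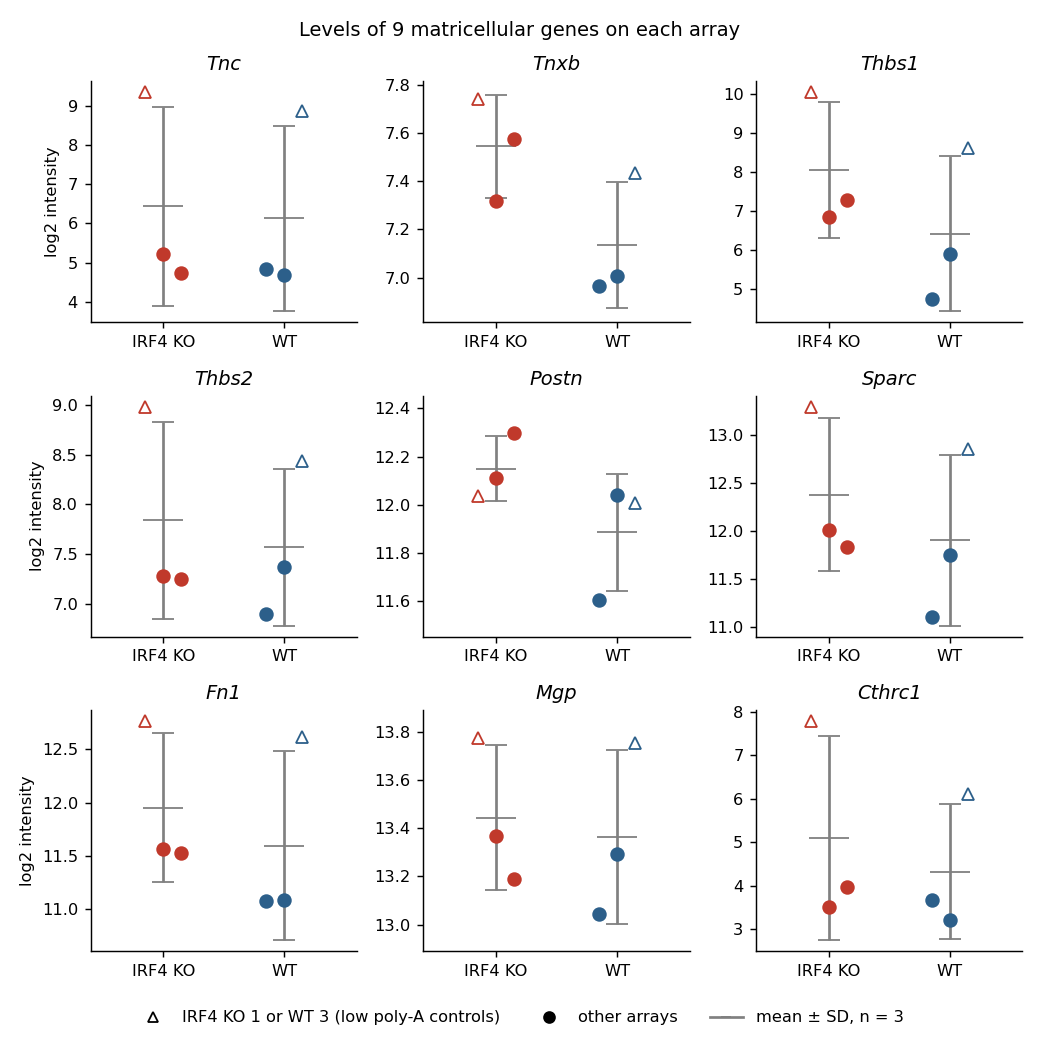
Levels of the 9 measured genes on each array (log2 intensity, a separate axis for each gene), with IRF4 KO left of WT. Points are arrays, triangles mark IRF4 KO 1 and WT 3, and grey bars show the mean ± SD of 3 arrays; the triangles are the highest of their genotype in every panel except Postn.

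The tenascins are large glycoproteins with different roles. Tenascin-C (Tnc) loosens cell adhesion and appears in injured and remodelling tissue. Tnc read 9.36, 5.22 and 4.73 in IRF4 KO 1 to 3, against 4.83, 4.69 and 8.86 in WT 1 to 3. The genotypes overlapped widely, and the 2 high arrays were one of each genotype. The means were 6.44 ± 2.54 in IRF4 KO and 6.13 ± 2.37 in WT (SD, n = 3 each), a difference of 0.31 with a 95% interval of -2.92 to 3.54. The interval reaches from 0.132-fold to 11.6-fold. With the array set as a block the difference was again 0.31 (SE 0.20), and the interval was -0.14 to 0.76, or 0.910-fold to 1.69-fold. The dimmer Tnc probe set had the same high arrays, at 4.46 in IRF4 KO 1 and 4.01 in WT 3, against 2.08 to 2.65 elsewhere. Its difference was 0.33 (SE 0.62). On the brighter probe set the difference turned to -1.15 when IRF4 KO 1 was left out, to -0.34 when WT 1 was and to -0.41 when WT 2 was.

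Tenascin-X (Tnxb), by contrast, is a stable component of collagen-rich connective tissue, whose loss in humans gives a form of Ehlers-Danlos syndrome. Tnxb read 7.74, 7.32 and 7.57 in IRF4 KO 1 to 3, against 6.96, 7.01 and 7.44 in WT 1 to 3. Only WT 3 reached into the IRF4 KO range, above IRF4 KO 2. The difference was 0.41 (95% interval -0.083 to 0.90), or 1.33-fold, and its unadjusted limma p of 0.0919 was the smallest among the 9 genes. It was 0.30 between IRF4 KO 1 and WT 3 and 0.46 among the other 4 arrays. Leaving out each array in turn gave 0.31 to 0.56.

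Periostin (Postn) binds collagen and integrins and is a product of activated fibroblasts and smooth muscle cells. Postn read 12.04, 12.11 and 12.30 in IRF4 KO 1 to 3, against 11.61, 12.04 and 12.01 in WT 1 to 3. The IRF4 KO arrays and 2 of the WT arrays lay close together, and WT 1 was the low one. The difference was 0.26 (SE 0.20, 95% interval -0.20 to 0.72), which is 1.20-fold. Postn was the 1 member whose level was not raised on IRF4 KO 1 and WT 3, where the mean differed by 0.0078 from that of the other 4 arrays. That pair differed by 0.030 between genotypes.

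Cthrc1, a secreted protein first described in injured rat arteries, read 7.79, 3.51 and 3.97 in IRF4 KO 1 to 3. In WT 1 to 3 it read 3.66, 3.20 and 6.10. As for Tnc, 1 array of each genotype was high, and on the other 4 arrays Cthrc1 lay below the median of all gene means. The means were 5.09 ± 2.35 in IRF4 KO and 4.32 ± 1.56 in WT, a difference of 0.77 (SE 1.15). That difference was 1.68 between IRF4 KO 1 and WT 3 and 0.31 among the other 4 arrays, and it turned to -0.58 without IRF4 KO 1.

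The starts of Tnc, Postn and Tnxb are shown because these genes behaved differently across the array sets. Tnc was the member that differed most between the sets, Postn the one that differed least, and Tnxb had the smallest p between genotypes. The windows run from 250 bases before to 50 after a RefSeq start in GRCm38.p6, on the strand of the gene. The Tnc window is chr4:64046887-64047186 (minus strand), that of Postn is chr3:54360857-54361156 (plus strand), and that of Tnxb is chr17:34670285-34670584 (plus strand). Capitals mark 3 motifs: TATATAA, a form of the TATA box, AANNGAAA, the letters that interferon regulatory factors are known to recognise, and TGANTCA, the AP-1 motif.
Tnc: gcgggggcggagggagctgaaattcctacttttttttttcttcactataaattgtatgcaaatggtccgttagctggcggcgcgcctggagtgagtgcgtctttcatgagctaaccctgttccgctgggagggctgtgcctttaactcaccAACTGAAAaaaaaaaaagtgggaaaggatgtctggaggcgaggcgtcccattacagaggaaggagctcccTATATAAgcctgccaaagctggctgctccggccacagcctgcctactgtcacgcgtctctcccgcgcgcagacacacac
Postn: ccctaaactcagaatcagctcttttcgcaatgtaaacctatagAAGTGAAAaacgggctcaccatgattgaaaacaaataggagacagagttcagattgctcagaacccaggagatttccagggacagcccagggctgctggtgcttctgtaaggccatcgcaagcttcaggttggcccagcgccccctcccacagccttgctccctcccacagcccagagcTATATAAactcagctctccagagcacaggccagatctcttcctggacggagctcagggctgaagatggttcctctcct
Tnxb: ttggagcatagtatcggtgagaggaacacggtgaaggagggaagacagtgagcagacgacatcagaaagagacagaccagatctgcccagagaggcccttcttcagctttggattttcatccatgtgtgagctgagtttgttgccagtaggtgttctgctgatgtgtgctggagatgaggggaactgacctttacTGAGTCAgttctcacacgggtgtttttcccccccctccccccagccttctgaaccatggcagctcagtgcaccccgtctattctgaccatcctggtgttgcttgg
In the printed windows TATATAA began 29 bases before the start of Tnc and 28 before that of Postn, close to the usual place of a TATA box. AANNGAAA began 99 bases before the start of Tnc and 207 before that of Postn, and TGANTCA 55 before that of Tnxb. Tnc and Postn each had another listed start that is not printed. That of Postn (chr3:54359017-54359316) held none of the motifs. That of Tnc (chr4:64046966-64047265) lacked TATATAA and held AANNGAAA 20 bases before the start. Both strands were searched, and 3.24% of all 32851 windows of this length hold TATATAA, 23.9% AANNGAAA and 7.81% TGANTCA. There were 7 windows of the measured members, of which 3 held AANNGAAA, and 2 of these are overlapping windows of Tnc. The 7 windows came from Tnc, Postn, Sparc, Thbs2 and Tnxb. No window was available for Thbs1, Fn1, Mgp or Cthrc1, so these genes were not searched. The CArG box bound by serum response factor was in 0 of the 7, against 1.63% of all windows. A match is a run of letters and not a site shown to be bound, and any part of these motifs in the levels was not tested. No marked motif overlaps another in the printed windows.

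Thrombospondin-1 (Thbs1), which activates latent TGF-beta and is rapidly induced in smooth muscle by injury and growth factors, had the largest difference among the members. Its brighter probe set read 10.06, 6.84 and 7.28 in IRF4 KO 1 to 3, against 4.75, 5.91 and 8.62 in WT 1 to 3. Within each array set the IRF4 KO arrays were above the WT arrays, while over all 6 arrays WT 3 lay above IRF4 KO 2 and 3. The difference was 1.63 (SE 1.08, 95% interval -0.84 to 4.10), or 3.10-fold. The pair IRF4 KO 1 and WT 3 gave 1.44 and the other 4 arrays gave 1.73. Leaving out IRF4 KO 1 gave 0.63, leaving out WT 1 gave 0.80, and leaving out WT 3 gave 2.73. With the array set as a block its SE was 0.28 and its limma adjusted p over all genes 0.0914, which did not pass the threshold. In the same fit over all probe sets the adjusted p was 0.274.

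The dimmer Thbs1 probe set did not show that difference. It read 6.80, 4.27 and 5.01 in IRF4 KO 1 to 3, against 4.85, 4.04 and 6.97 in WT 1 to 3, a difference of 0.076 (SE 0.82). Within the array sets the difference was -0.17 for the pair IRF4 KO 1 and WT 3 and 0.20 for the other arrays. Both probe sets were high on IRF4 KO 1 and WT 3. The 2 probe sets thus disagree on the size of the genotype difference, and which of them follows the transcript was not tested. With the array set as a block the dimmer one differed by 0.076 (SE 0.27). With the mean of both, Thbs1 differed by 0.86 (SE 0.95).

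Thrombospondin-2 (Thbs2), which restrains angiogenesis and clears matrix proteases, read 8.98, 7.28 and 7.26 in IRF4 KO 1 to 3 on its brightest probe set. In WT 1 to 3 it read 6.90, 7.37 and 8.44. The difference was 0.27 (SE 0.53, 95% interval -0.96 to 1.49). The other probe sets differed by 0.55 (SE 0.84) and -5.1e-04 (SE 0.46). All 3 were highest on IRF4 KO 1 and WT 3, and none separated the genotypes. The difference on the brightest one turned to -0.30 without IRF4 KO 1 and -0.065 without WT 1.

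**Figure D2:**
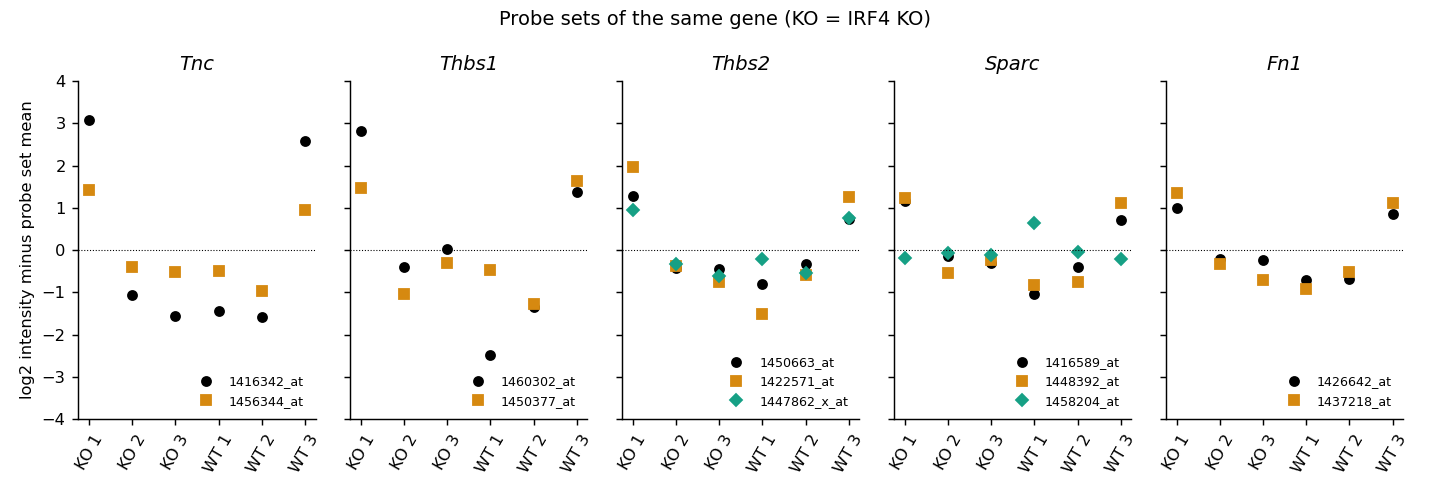
Log2 intensity of each probe set minus its own mean over the 6 arrays, for the 5 genes with several probe sets, with IRF4 KO arrays left of WT arrays. In Tnc, Thbs1, Thbs2 and Fn1 every probe set is highest on IRF4 KO 1 and WT 3, whereas the dimmest Sparc probe set is not high on those arrays. The probe sets of Thbs1 and of Thbs2 differ from each other on WT 1.

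Sparc, or osteonectin, binds collagen and guides fibril assembly. Sparc read 13.30, 12.01 and 11.83 in IRF4 KO 1 to 3, against 11.10, 11.75 and 12.86 in WT 1 to 3. Within each array set the IRF4 KO arrays were the higher ones. The difference was 0.48 (SE 0.51), or 1.39-fold with a 95% interval of 0.620 to 3.13. It shrank to 0.019 without IRF4 KO 1 and to 0.077 without WT 1, and was 0.96 without WT 3. The second bright probe set gave 0.32 (SE 0.61). The dimmest one lay below 4.89 on every array and went the other way, by -0.24 (SE 0.24).

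Fibronectin (Fn1), the adhesive glycoprotein of the provisional matrix, read 12.77, 11.57 and 11.53 in IRF4 KO 1 to 3. In WT 1 to 3 it read 11.07, 11.09 and 12.62. The 2 lowest arrays were WT, and the 2 highest were one of each genotype. The difference was 0.36 (SE 0.49, 95% interval -0.75 to 1.47), with 0.15 between IRF4 KO 1 and WT 3 and 0.47 among the other 4 arrays. Without IRF4 KO 1 it was -0.045. The second probe set differed by 0.22 (SE 0.64).

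Matrix Gla protein (Mgp), made by smooth muscle and cartilage cells, had the smallest difference between genotypes among the members. Mgp read 13.77, 13.37 and 13.19 in IRF4 KO 1 to 3, against 13.05, 13.29 and 13.75 in WT 1 to 3. The difference was 0.080 (SE 0.25), and the 95% interval reached from 0.708-fold to 1.58-fold. It turned to -0.086 without IRF4 KO 1, -0.080 without WT 1 and -0.043 with quantile normalization.

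**Figure D3:**
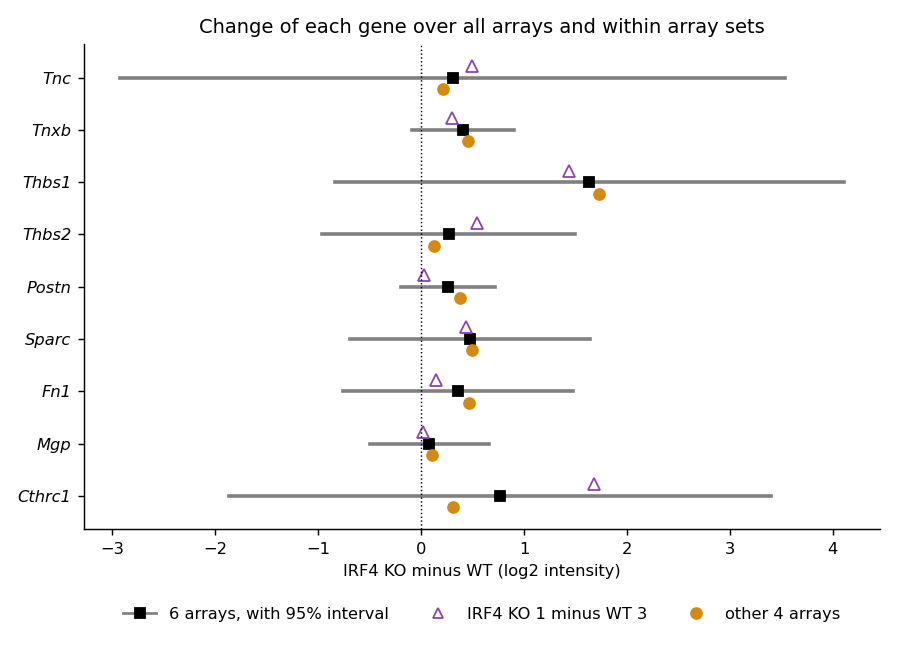
Difference IRF4 KO minus WT in log2 intensity for each gene: squares with grey lines give the 6-array value and its 95% interval, triangles IRF4 KO 1 minus WT 3, and circles the other 4 arrays. Every 6-array interval spans 0, and both within-set values lie above 0 for all 9 genes.

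Within the array sets the members, each read on its brightest probe set, went the same way. All 9 were higher in IRF4 KO both between IRF4 KO 1 and WT 3 and among the other 4 arrays, which holds for 26.3% of all genes. The median difference was 0.44 in the first set and 0.38 in the second, against 0.0019 and 0.0011 over all genes. Among the 4 arrays, both IRF4 KO arrays lay above both WT arrays in 5 of the 9 genes (Tnxb, Thbs1, Postn, Sparc and Fn1), against 14.1% of all genes. The 9 genes are read on the same arrays and are not independent of each other, so these counts describe the arrays and carry no test. With the array set as a block, 4 of the 9 genes (Thbs1, Cthrc1, Sparc and Tnxb) had an unadjusted limma p under 0.05, against 3.68% of all genes, and 0 had an adjusted p under 0.05. Apart from Thbs1, every member's adjusted p in that fit was 0.995. With IRF4 KO 1 and WT 3 left out instead, 1 of the 9 genes (Thbs1) had an unadjusted limma p under 0.05, as did 705 of all 18194 genes. In the block fit over probe sets, the dimmer Thbs1 probe set had an unadjusted limma p of 0.78. The second bright Sparc probe set had 0.11 and the dimmest 0.29, the latter with a lower mean in IRF4 KO. Among the 16 probe sets, 14 had a higher mean in IRF4 KO, against 52.2% of all 45037 probe sets. In both array sets alike, 13 of the 16 were higher in IRF4 KO, and the share over all probe sets was not computed. The exceptions were the dimmer Thbs1 probe set, the third Thbs2 probe set and the dimmest Sparc probe set. In the fit with no block none of the 16 had an unadjusted limma p under 0.05 (1.74% of all), and none was called (0% of all).

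The difference between array sets was larger than that between genotypes for 7 of the 9 members, Postn and Tnxb being the exceptions. Tnc was higher by 4.24 on IRF4 KO 1 and WT 3 than on the other 4 arrays, which is 18.9-fold. Cthrc1 was higher by 3.36, Thbs1 by 3.14, Thbs2 by 1.51, Sparc by 1.41 and Fn1 by 1.38. Mgp and Tnxb were higher by 0.54 and 0.37. In 7 of the 9 genes IRF4 KO 1 and WT 3 were both above all other arrays, against 17.4% of all genes. For Tnc the shift was 4.38 within IRF4 KO and 4.10 within WT. Each genotype had 1 array of this kind, and the SD of each genotype includes it.

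Markers of other cell types moved with the same arrays. The 10 cartilage markers averaged 7.39 and 7.42 on IRF4 KO 1 and WT 3, against 3.58 to 4.03 elsewhere, with 9 of 10 higher on both. Col2a1, the collagen of cartilage, read 12.16 and 12.07 there, against 3.75 to 5.15. The 6 adventitial fibroblast markers averaged 9.43 and 8.87, against 7.18 to 7.47, with 5 of 6 higher on both. Lum, a fibroblast proteoglycan gene, stood out in that list at 12.37 and 11.99, against 6.93 to 7.53. It was higher by 4.96 on these arrays, the others by 0.62 (Dpt) to 2.02 (Pdgfra). Pi16 read 6.14 in WT 3, below 6.22 in WT 1. The 8 macrophage markers averaged 8.38 and 7.29, against 4.29 to 5.23, with 7 of 8 higher on both. In the bone and osteoclast list 4 of 7 measured genes were higher on both arrays, among them Ibsp at 7.71 and 5.64, against 1.54 to 2.24. Over the 6 arrays 5 of the 10 cartilage, 2 of the 8 macrophage and 6 of the 7 bone and osteoclast markers had a mean below the median gene level. The 6 endothelial markers averaged 7.55 and 7.35, against 6.55 to 7.11, with 2 of 6 higher on both arrays. The smooth muscle list did not follow, at 10.63 and 10.19, against 10.38 to 11.01. The part of these cell types in the levels of the matricellular genes was not tested. In bulk RNA more cells of a type and more RNA per cell cannot be told apart.

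Between genotypes the marker lists moved differently from one another. Among the 4 other arrays the mean of the members was higher by 0.48 in IRF4 KO, whereas the macrophage list differed by -0.55, the fibroblast list by -0.20 and the cartilage list by -0.11. The smooth muscle list was higher by 0.45 and the endothelial list by 0.30. The smooth muscle genes did not move together: on those 4 arrays Acta2, Smtn and Tagln differed by 1.09, 1.07 and 1.02 and Myh11 by 0.38, while Cnn1, Actg2 and Des differed by -0.0033, -0.033 and -0.39. Over all 6 arrays 4 of the 7 were higher in IRF4 KO, with a median difference of 0.19. Between IRF4 KO 1 and WT 3 the members were higher by 0.57, the macrophage list by 1.09, the bone and osteoclast list by 0.90, the fibroblast list by 0.56 and the smooth muscle list by 0.44. The cartilage list differed by -0.030. Platelet and megakaryocyte markers, of interest because platelets store thrombospondin-1, averaged 5.00 to 5.20 in IRF4 KO and 4.56 to 5.41 in WT. T cell markers (4 measured) averaged 3.62 to 4.34 in IRF4 KO and 3.55 to 3.87 in WT. Skeletal muscle markers averaged 3.92 to 4.04 in IRF4 KO and 3.61 to 3.86 in WT. Thyroid, red blood cell and adipocyte lists had 2 measured genes each, all below the median of gene means.

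**Figure D4:**
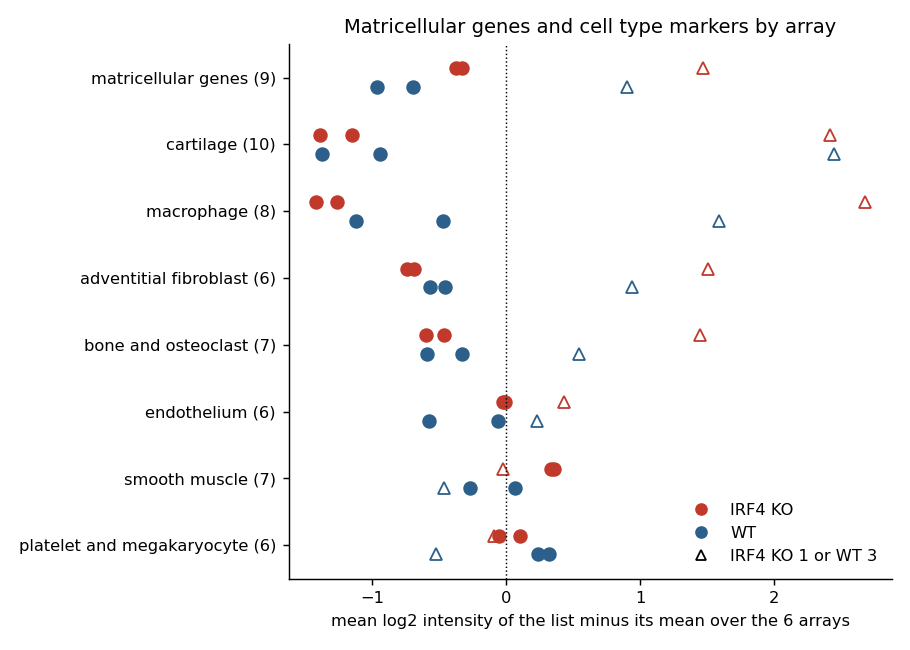
Mean log2 intensity of each list on each array, minus its mean over the 6 arrays, with the number of measured genes in brackets and IRF4 KO drawn above WT. Triangles mark IRF4 KO 1 and WT 3, which lie far to the right for the matricellular, cartilage, macrophage, fibroblast and bone lists. They lie less far to the right for the endothelial list, and not to the right of the others for smooth muscle or platelet markers.

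The partners of these proteins were read from lists of relatives, receptors, processing enzymes and upstream signals. Of 23 other matricellular and SIBLING family genes, 20 had a higher mean in IRF4 KO, against 49.7% of all genes. Of these 23, 0 were called, the median difference was 0.21, and 12 lay above the median gene level. The 3 with the smallest p were Tnn (tenascin-N, 0.39), Thbs4 (a thrombospondin, 0.35) and Smoc1 (a Sparc relative, 0.26), each with a limma adjusted p of 0.999. Tnn and Thbs4 lay below the median gene level. Within each array set alike, 8 of the 23 were higher in IRF4 KO, against the 26.3% of all genes given above.

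The 18 receptors and co-receptors were evenly split, with 9 higher and 9 lower in IRF4 KO and a median difference of -0.018. Integrin beta 1 (Itgb1), the common chain of the fibronectin and collagen receptors, read 9.81, 9.64 and 9.96 in IRF4 KO 1 to 3, against 8.11, 9.74 and 9.19 in WT 1 to 3. It differed by 0.79 (SE 0.38, limma adjusted p = 0.999). WT 1 was the lowest array and WT 2 lay above IRF4 KO 2. Itgb5 differed by 0.43 and Itgb6, below the median level, by 0.31.

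Among 14 processing and crosslinking genes 11 were higher in IRF4 KO and 3 lower, against 49.7% higher over all genes. Their median difference was 0.14, and 0 were called. The gelatinase gene Mmp2 had an unadjusted p under 0.05, with a difference of 1.25 (SE 0.20, limma adjusted p = 0.252). Mmp2 read 8.98, 9.04 and 9.32 in IRF4 KO 1 to 3, against 8.01, 7.93 and 7.65 in WT 1 to 3, with no overlap. Unlike most members it was not raised on IRF4 KO 1 and WT 3. Ggcx, the carboxylase that activates Mgp, differed by 0.34 (SE 0.31), and the crosslinking enzyme gene Lox by 0.56 (SE 0.54).

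Of 17 measured upstream signals and factors, 10 were higher and 7 lower, with a median of 0.059 and 0 called. Tgfb1, a growth factor that induces Tnc, Postn and Fn1 in many mesenchymal cells, read 3.88, 3.998 and 3.98 in IRF4 KO 1 to 3. In WT 1 to 3 it read 5.11, 5.01 and 5.13, a difference of -1.13 (SE 0.17, limma adjusted p = 0.252). Its mean over the 6 arrays lay below the median gene level of 4.89. Tgfb1 and Egr1 had an unadjusted p under 0.05. The immediate early factors Egr1 and Fos differed by 0.89 (SE 0.35) and 0.81 (SE 0.39). Their difference lay among the other 4 arrays (1.45 and 1.33) and was -0.22 for both between IRF4 KO 1 and WT 3.

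The members fell into different patterns over the arrays. Likeness was measured as the root mean square distance between levels centred on each gene's mean over the 6 arrays, in log2 units. The closest pair was Thbs2 and Sparc at 0.17, followed by Sparc and Fn1 at 0.21. The farthest was Tnc and Postn at 2.02. Outside the members, the genes nearest to Tnc were Acan, the cartilage proteoglycan aggrecan (0.34), Rgs5, a regulator of G protein signalling found in pericytes (0.40), and the collagen gene Col12a1 (0.41). The pattern of Tnc itself had a root mean square of 2.01. Nearest to Postn were Rcn2 (0.027), Tm4sf1 (0.041) and Stt3b (0.050), against 0.21 for Postn itself. Nearest to Mgp were Cul3 (0.041), Parp9 (0.041) and Golph3 (0.043), against 0.27 for Mgp. Only genes above the median level were searched, and a gene whose levels vary little finds near neighbours more easily.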

How the data were processed

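The 6 arrays were read from 1 table of log2 probe set intensities, which the authors deposited after Affymetrix Expression Console and RMA, per the submitters' processing notes. RMA understates changes of dim probe sets. Versions and settings were not given in the sources used. Of 45101 probe sets, 34958 had 1 symbol in the platform annotation, 932 had several and 9211 had none listed. Each of 18194 genes took its probe set with the highest mean. The genotypes were compared (IRF4 KO minus WT) using limma 3.58.1 (R 4.3.3), a two-sided moderated test with no covariate, adjusted by Benjamini-Hochberg over all genes. A fit of the 45037 probe sets other than controls gave the values of single probe sets. Array sets were divided at the widest gap in the mean of 27 poly-A control probe sets. Tested on simulated data of the same 18194 genes for IRF4 KO against WT, it called 23% of the genes shifted by 1 and 65% of the genes shifted by 2 log2 units. Only genes above the median gene mean were shifted, and the noise was drawn independently for each gene and array. The array sets were not simulated. The members had a median SD of 0.84, against 0.26 for all genes, so these shares do not give the recovery for the members.

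The members, lists and alternatives were chosen with earlier results of these data known. The naming rule took all members, Irf4, up to 3 genes per partner list with the smallest p and any gene past the threshold, and the 3 nearest patterns of Tnc, Postn and Mgp; the same rule could not be applied to Spp1. Single marker genes were chosen after their values were seen. Replicate numbers are shared between genotypes. The correlations of same-numbered arrays' deviations were -0.52, 0.37 and -0.62, and that of IRF4 KO 1 with WT 3 was 0.68. These deviations include the difference between the array sets, so they cannot show whether same-numbered arrays were handled as pairs. The main fit did not pair them, and a fit with a replicate block is an alternative. Precision is limited by 3 arrays per genotype.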

Additional observations from a re-analysis of the deposited data

How the results depend on the processing

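Under 15 alternatives no member gene passed the adjusted threshold. Of 134 member values, 122 kept their direction and 12 reversed, and all 9 members were higher in IRF4 KO with array medians subtracted. With array weights Thbs2 was -0.16, Cthrc1 -0.061, Irf4 0.11, the dimmer Thbs1 probe set -0.12 and the third Thbs2 probe set 0.033. Weight estimation stopped before it converged and gave IRF4 KO 2 a weight of 26.7, and 68 genes were called. With quantile normalization Mgp was -0.043 and that Thbs2 probe set 0.068. Without the 2 arrays with low poly-A controls 5 genes were called, none of them a member. With the replicate block 0 genes were called, as without it, 128 had an unadjusted p under 0.05 (271 without the block), and no member's call changed. That count ran from 128 with dim genes left out, which tests fewer genes and drops Cthrc1, through 670 with the array set as a block and 705 without those arrays, to 4252 with array weights, and from 166 to 742 when single arrays were left out. Leaving out each array in turn gave 4 to 9 members higher in IRF4 KO and 0 genes called. The difference then ranged from -1.15 to 1.68 for Tnc, -0.30 to 0.70 for Thbs2, -0.045 to 0.87 for Fn1, -0.086 to 0.27 for Mgp, -0.58 to 1.66 for Cthrc1 and -0.19 to 0.087 for Irf4. It ranged from -0.40 to 0.83 for the second Fn1 probe set, -0.23 to 0.95 and -0.42 to 0.012 for the other Sparc probe sets, -0.64 to 0.92 for the dimmer Thbs1 probe set, -0.29 to 1.32 and -0.47 to 0.37 for the other Thbs2 probe sets, and -0.29 to 0.90 for the second Tnc probe set. Postn (0.12 to 0.34), Tnxb (0.31 to 0.56), Thbs1 (0.63 to 2.73) and Sparc (0.019 to 0.96) kept their direction in all of these. The lowest values of Tnc, Thbs2, Fn1, Mgp and Cthrc1 came without IRF4 KO 1, which leaves WT 3 without a counterpart. The array number limits precision.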
